A study of Homo sapiens with 20 samples.

Results

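The loss of transcripts after DRB was followed in tunicamycin-treated U2OS cells, an established human osteosarcoma line, on 4 of the series' 20 arrays. The 4 arrays carry the treatment label tunicamycin and follow DRB for up to 4.5 hr, at 0, 1.5 and 3 hr and at that last time. Members were the 8852 genes, of 19775 with a probe set of 1 symbol, whose log2 signal was 7 or more (a signal of 128) on the tunicamycin array at 0 hr. Of them 8850 entered the fit across 14478 genes, and FNTB and CCZ1B did not, because their mean signal over all arrays lay under the filter. Every culture was U2OS grown in DMEM with 10% FCS, and all but those sampled at 0 hr received DRB at 100 ug/ml. The tunicamycin cells had been given 2.5 ug/ml of tunicamycin for 3 hr beforehand. They were set beside control cells, cells kept below 0.1% oxygen for 3 hr (hypoxia), cells given emetine at 100 ug/ml for 3 hr, and cells depleted of UPF1, labelled shRent1, with 4 arrays each. Each condition and time has 1 array, the labels do not say whether tunicamycin stayed in the medium during DRB, and nothing in them says that arrays came from separate cultures. All errors below are therefore the scatter of single arrays about fitted lines.

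DRB blocks the kinase that releases RNA polymerase II into elongation, so that few new messengers are made and each transcript's level afterwards follows its own decay. Tunicamycin stops the synthesis of the sugar chain that is attached to proteins entering the endoplasmic reticulum (ER), and unfolded protein builds up there. The ER answers through the sensors PERK (gene EIF2AK3), IRE1 (gene ERN1) and ATF6. PERK slows translation and favours the factors ATF4 and CHOP (gene DDIT3), the branch called the integrated stress response. IRE1 splices the XBP1 messenger, and XBP1 and ATF6 raise chaperones and the machinery of ER-associated degradation.

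Some mesenchymal and some epithelial markers were present, and others of both kinds were low. At 0 hr 8 of 10 osteosarcoma and mesenchymal markers reached log2 7, counting SPP1 at a rounded 7.0, while COL1A2 read 4.24. Of 5 epithelial markers 3 reached log2 7, KRT18 at 12.86, KRT8 at 11.76 and EPCAM at 7.74. CDH1 read 4.46 and KRT19 4.55, both in the range of the bacterial controls given below. None of 4 blood and 4 endothelial markers did, with log2 signals of 3.18 to 6.14. The median signal of the tunicamycin arrays lay between 39.1 and 40.3 and their pairwise Pearson correlation over probe sets between 0.963 and 0.994. Because the arrays were normalized to one another, a change is relative to the typical transcript and not an amount per cell, and fewer cells and less RNA per cell cannot be told apart. The 27 probe sets for bacterial poly(A) controls read log2 2.81 to 5.26 on these arrays, so the size of a loss that ends in this range is uncertain. Of 173 genes lost at 1.5 hr, 37 (21.4%) read 5.26 or less at 4.5 hr.

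Transcripts left the pool in a small, ordered set, and most of the members stayed. At least 2-fold lower than at 0 hr, here called lost and given without a test, were 173 members at 1.5 hr (1.95%), 505 at 3 hr (5.7%) and 683 at 4.5 hr (7.72%). The 173 are called early. Another 300 (3.39%) are called late, because they were still above a log2 change of -0.5 at 1.5 hr and lost by 4.5 hr. At all 3 times 2906 members (32.8%) stayed within 0.25 log2 of their level at 0 hr and are called steady, and 10 (0.113%) were 2-fold higher at 4.5 hr. The median log2 change of the early genes was -1.4, -2.19 and -2.47 at the 3 times, that of the late genes -0.3, -0.97 and -1.31, and that of all members 0.07, 0.0 and 0.1. Only 6 early genes had come back above -1 by 4.5 hr.

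Just inside the early limit lay ZNF827 (-1.001), TOPORS (-1.006) and BHLHE40 (-1.014), and just outside it BMS1P2 (-0.988), ZNF830 (-0.987) and FZD2 (-0.986). At log2 7 the nearest members were ACSS2, PLK1 and MUC12-AS1, and the nearest genes left out were CCDC88B, TTC38 (6.999) and EPS15L1 (6.998).

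A line fitted through the 4 times gave each gene a slope in log2 per hr. By limma, with an adjusted p under 0.05 over all genes tested, 1407 members fell (15.9%) and 1105 rose (12.5%). Both counts move with the end arrays: leaving out the array at 0 hr, 476 fell and 13 rose, and leaving out that at 4.5 hr, 882 fell and 176 rose. With the arrays centred on ribosomal protein genes instead, the median change of all members at 4.5 hr was -0.03 in place of 0.1, and 1770 members fell while 498 rose. With quantile normalization 1323 fell and 1391 rose. The direction of small shifts, under about 0.13 log2, thus depends on the scaling. In no list did more members pass as falling, as rising or as higher in slope than control when the array at 0 hr was left out.

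**Figure D1:**
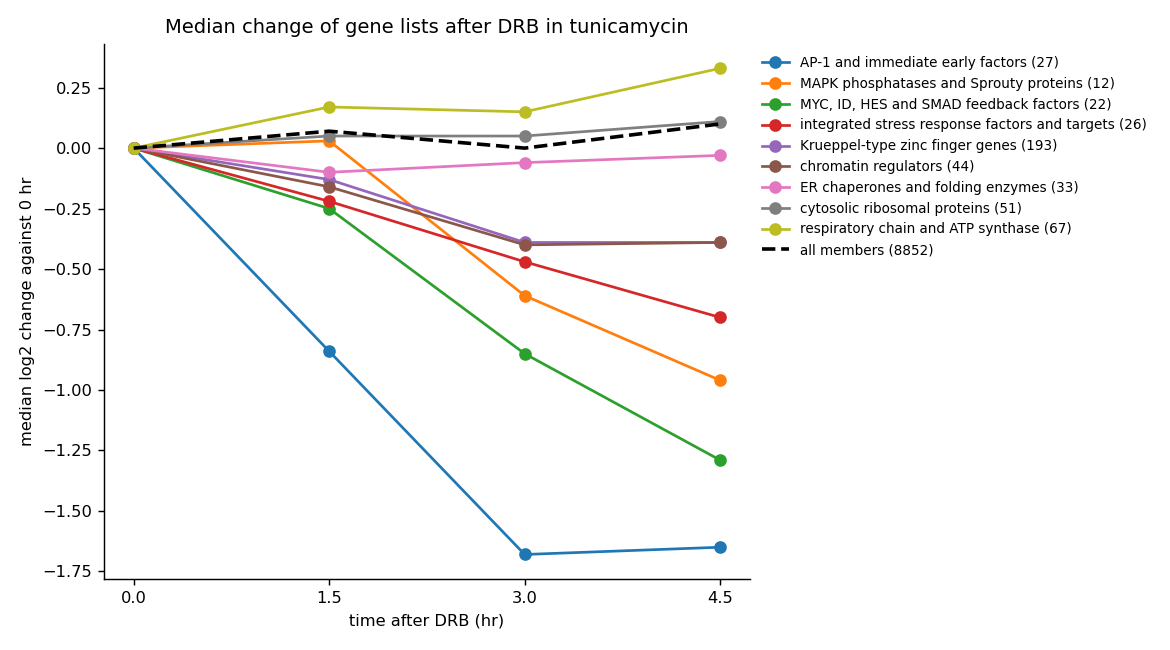
Median log2 change against 0 hr (vertical axis) against time after DRB in hr (horizontal axis) for 9 gene lists in tunicamycin, with the number of members in brackets, and for all 8852 members (dashed). The immediate early list reaches -1.68 at 3 hr and then levels off, the integrated stress response list goes on down to -0.7 at 4.5 hr, and ER chaperones and ribosomal proteins stay within 0.11 of 0.

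Some promoters of the ER chaperone and integrated stress response lists hold different motifs, and most promoters of both lists hold neither. Whether a motif goes with a transcript's course after DRB was not tested. In the 250 bases before each gene's start, in RefSeq's sequences of GRCh38.p14 and on both strands, the ER stress element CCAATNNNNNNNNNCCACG stood in 6 of 29 ER chaperone members with a sequence (20.7%), in 0 of 22 members of the integrated stress response list and in 25 of 27305 genes (0.0916%). The C/EBP-ATF composite element TGATGNAA, which ATF4 and CHOP are known to bind, stood in 5 of 22 integrated stress response members (22.7%), in 0 of 29 chaperone members and in 1061 of 27305 genes (3.89%). The 6 chaperone genes were HSPA5, HSP90B1, CALR, CANX, PDIA6 and CRELD2, and the 5 others ATF3, CEBPG, CHAC1, PPP1R15B and JDP2. A match is a description of these letters and not a shown binding site. The following 5 promoters are shown because the first 3 belong to chaperones whose transcripts stayed and the last 2 to stress response genes that kept different shares of their signal, and capitals mark the fixed bases of the motif on either strand. HSPA5 lies at chr9:125241344-125241593 (minus strand), HSP90B1 at chr12:103930160-103930409, CALR at chr19:12938359-12938608, CHAC1 at chr15:40953221-40953470 and ATF3 at chr1:212565157-212565406 (plus strand for these 4).
HSPA5: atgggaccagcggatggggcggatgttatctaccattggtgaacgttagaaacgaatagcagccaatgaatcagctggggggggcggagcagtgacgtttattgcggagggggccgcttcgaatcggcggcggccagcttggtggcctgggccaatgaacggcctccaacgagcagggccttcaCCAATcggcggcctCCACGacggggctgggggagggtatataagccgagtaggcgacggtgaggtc
HSP90B1: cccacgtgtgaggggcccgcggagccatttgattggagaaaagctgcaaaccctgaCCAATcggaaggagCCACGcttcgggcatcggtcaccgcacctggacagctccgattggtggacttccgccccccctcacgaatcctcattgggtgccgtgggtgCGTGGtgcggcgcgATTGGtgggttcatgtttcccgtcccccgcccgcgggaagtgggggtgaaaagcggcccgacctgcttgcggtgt
CALR: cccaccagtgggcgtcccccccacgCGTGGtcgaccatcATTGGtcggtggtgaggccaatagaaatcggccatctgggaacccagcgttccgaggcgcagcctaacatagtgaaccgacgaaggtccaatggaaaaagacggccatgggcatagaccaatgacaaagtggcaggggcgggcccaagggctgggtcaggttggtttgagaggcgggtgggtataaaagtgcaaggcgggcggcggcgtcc
CHAC1: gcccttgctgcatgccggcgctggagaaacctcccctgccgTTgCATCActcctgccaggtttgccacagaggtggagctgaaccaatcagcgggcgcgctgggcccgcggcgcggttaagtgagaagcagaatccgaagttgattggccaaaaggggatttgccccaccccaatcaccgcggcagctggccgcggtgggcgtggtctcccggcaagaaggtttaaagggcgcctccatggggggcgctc
ATF3: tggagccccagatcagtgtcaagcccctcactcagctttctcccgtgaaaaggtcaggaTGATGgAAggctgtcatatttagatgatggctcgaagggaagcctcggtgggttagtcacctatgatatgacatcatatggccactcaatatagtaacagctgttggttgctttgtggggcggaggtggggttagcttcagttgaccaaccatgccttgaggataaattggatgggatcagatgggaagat

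Regulators of transcription and signalling were among the early losses. Of 27 members of the list of AP-1 and immediate early factors, which cells switch on within minutes of a stimulus, 11 were lost at 1.5 hr and 17 at 4.5 hr (63%), and 18 fell while 0 rose. Their median log2 change was -0.84, -1.68 and -1.65 at 1.5, 3 and 4.5 hr, beside 0.07, 0.0 and 0.1 over all members. Without the array at 0 hr 5 of the 27 passed as falling, and without that at 4.5 hr 14.

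JUN, a subunit of AP-1, read log2 11.17, 9.68, 7.75 and 7.0 in order of time, as for each gene from here on, and fell by 0.96 log2 per hr (SE 0.2, limma adjusted p = 0.00368), with 5.55% of its signal left. EGR1, an immediate early zinc finger factor, read 12.53, 10.43, 8.59 and 8.77 (7.34% left). IER3, an early response gene that limits apoptosis, read 13.3, 11.01, 9.57 and 9.51 (7.24% left), and CCN1, a secreted matrix protein, 12.84, 11.43, 10.02 and 9.47 (9.72% left). For EGR1 and IER3 the loss was complete by 3 hr, while JUN and CCN1 were still lower at 4.5 hr than at 3 hr. FOSL1, another AP-1 subunit, named after its values were seen, read 9.1, 8.21, 6.7 and 6.08. SRF, which turns on immediate early genes, did not follow them: it read 9.27, 9.51, 9.06 and 9.16.

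The 22 members of the list of MYC, ID, HES and SMAD feedback factors had 3 early losses and 11 losses at 4.5 hr (50%), with 11 falling (4 without the array at 0 hr, 7 without that at 4.5 hr) and 0 rising. MYC, a driver of growth, read log2 12.85, 12.11, 10.77 and 9.89 in tunicamycin, which leaves 59.9% at 1.5 hr and 12.8% at 4.5 hr. In control cells MYC read 11.96, 8.97, 8.52 and 8.56, so that nearly all of its loss there lay before 1.5 hr. The slopes of MYC did not differ by the test (0.03 log2 per hr, limma adjusted p = 0.969), and a straight line does not register when within the 4.5 hr a loss happens. ID1, an inhibitor of differentiation factors, read 12.22, 9.96, 9.05 and 9.24, and ID2 read 7.91, 6.79, 5.22 and 4.09, the last in the range of the bacterial controls.

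Feedback inhibitors of kinase signalling were also lost. Of 12 MAPK phosphatases and Sprouty proteins 3 were early, 6 were lost at 4.5 hr and 8 fell (4 without the array at 0 hr). DUSP1, which switches off stress-activated kinases, read log2 11.78, 8.69, 6.27 and 5.88 and fell by 1.34 per hr (SE 0.27, limma adjusted p = 0.00383), with 1.67% left. In control cells DUSP1 read 10.92, 6.63, 6.29 and 6.62 and was at its end level by 1.5 hr. SPRY2, an inhibitor of growth factor signalling, read 7.19, 5.39, 4.81 and 4.17, and DUSP2 8.37, 6.56, 6.08 and 5.73. DUSP5 was slower, with 9.23, 8.63, 7.46 and 6.36. Without the array at 0 hr the slope of DUSP1 was -0.94 (adjusted p = 0.324).

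TRIB1, a pseudokinase that steers ubiquitin ligases, read log2 9.96, 6.41, 4.53 and 4.23 (1.88% left). Its slope was -1.27 (SE 0.25, limma adjusted p = 0.00316), and -0.73 without the array at 0 hr (adjusted p = 0.381). SGK1, a kinase induced by serum and glucocorticoids, read 10.66, 8.56, 6.02 and 5.19 (2.25% left), PLK2, a p53 target, 10.58, 9.34, 7.32 and 6.01 (4.2% left), and GADD45B 10.68, 8.62, 6.73 and 6.14 (4.3% left). All 4 lost signal over each interval. For GADD45B all 3 probe sets at log2 7 or more, each of the _s_at or _x_at type, were lost at 4.5 hr (-4.54, -3.43 and -2.9), and its slope had an adjusted p of 0.231 without the array at 0 hr. Without probe sets of those types its slope was -0.09 (adjusted p = 0.318), taken from a probe set that starts under log2 7. WEE1, the kinase that holds cells before mitosis, read 9.78, 7.87, 5.96 and 4.9 and had one of the tightest lines, -1.1 (SE 0.08, limma adjusted p = 4.22e-06). MCL1, a short-lived survival protein of the BCL2 family, read 11.74, 10.34, 9.03 and 8.67 (11.8% left).

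Of 24 NF-kappaB and cytokine genes 3 were early and 5 were lost at 4.5 hr (20.8%, against 7.72% of all members). NFKBIA, the inhibitor that holds NF-kappaB in the cytoplasm, read log2 11.35, 8.01, 7.2 and 7.44, a loss made almost wholly in the first interval. Its slope missed the threshold (-0.84, SE 0.29, limma adjusted p = 0.0536). NFKBIZ, an atypical member of the same inhibitor family, read 10.27, 7.79, 8.22 and 8.39, and TNFAIP3, another brake on the pathway, 9.56, 8.67, 7.85 and 7.53. The chemokine CCL20 read 10.28, 10.25, 10.15 and 10.19. In all, 5 of the 24 fell and 2 rose (8.33%), against 1 and 0 without the array at 0 hr and 2 and 0 without that at 4.5 hr. Over all members 15.9% fell and 12.5% rose. ADM, a vasodilator peptide gene on the hypoxia list, was lost as fast as NFKBIA: it read 8.41, 5.27, 4.76 and 4.4, the later values near the floor.

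Transcripts that do not code for protein made up a larger share of the early losses than of the late or steady genes, a count with no test. Of the 173 early genes 27 (15.6%) had a biotype other than protein coding or none given, 15 of them long noncoding RNAs and 10 transcribed pseudogenes, against 286 of all 8852 members (3.23%), 3 of the 300 late genes (1%), 66 of the 2906 steady ones (2.27%) and 2 of the 10 that were 2-fold higher (20%). HYMAI, an imprinted noncoding RNA, read log2 8.0, 3.88, 4.04 and 4.0, and GTF2H2B, a transcribed pseudogene, 9.66, 5.25, 4.39 and 4.69. LOC114224 read 7.73, 4.95, 4.29 and 4.54 and ASAP1-IT1, a transcript within the ASAP1 gene, 8.86, 6.11, 5.65 and 5.11. All 4 made most of their loss before 1.5 hr. By limma ASAP1-IT1 (adjusted p = 0.00621), LOC114224 (0.0144) and GTF2H2B (0.0277) fell and HYMAI did not pass (0.136). Without the array at 0 hr GTF2H2B did not pass either (slope -0.18, adjusted p = 0.895). SNORA21, a small nucleolar RNA gene, read 7.35, 4.32, 4.3 and 4.41.

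Several protein-coding names among the 15 largest losses at 1.5 hr had no other probe set at log2 7 or more. TAF1D, a subunit of the RNA polymerase I factor SL1, read log2 9.17, 4.83, 4.66 and 4.89, EIF3C 8.17, 3.85, 3.77 and 4.14, and VMP1 8.84, 6.05, 6.17 and 5.65. Another probe set at log2 7 or more was on the array for 52 of the 173 early genes: for 22 another one was lost too, and for 22 one stayed above -0.5 at 1.5 hr. The early genes were also shorter, with a median span of 16992 bp in the gene table against 30163 bp for all members, 23631 bp for the late and 31450 bp for the steady genes. These spans are given as a description.

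**Figure D2:**
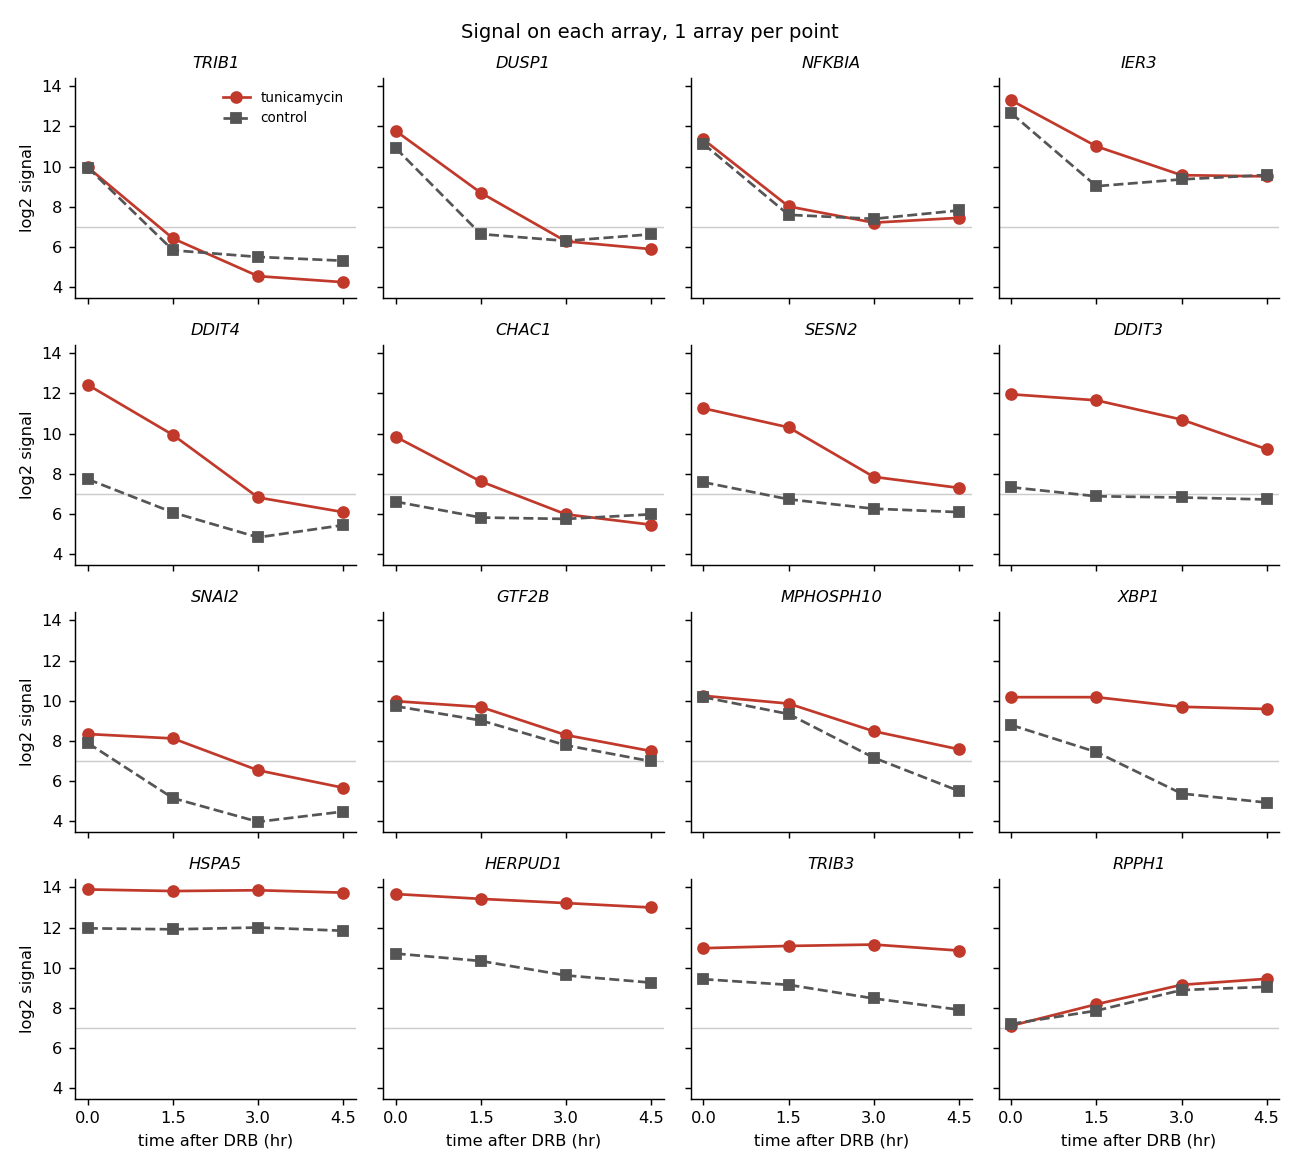
Log2 signal (vertical axis) against time after DRB in hr (horizontal axis) for 16 genes in tunicamycin (circles, solid) and control (squares, dashed). Each point is 1 array, so there is no error bar, and the grey line marks log2 7. DDIT4, CHAC1 and SESN2 start high in tunicamycin and come down to 5.45 to 7.29, while HSPA5 stays at 13.74 to 13.9 and XBP1 at 9.58 to 10.17.

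Part of the integrated stress response list was lost after DRB. Of 26 members 11 were lost at 4.5 hr (42.3%, against 7.72% of all members) and 15 fell, against 15.9% of all members. The 8 that were steady (30.8%) are near the 32.8% of all members, and 2 rose (7.69%, against 12.5%). At 0 hr 13 of the 26 were already 2-fold or more above control. A high reading on the 0 hr array enters both that excess and the loss after it, and its part was not tested. Without that array 7 of the 26 passed as falling.

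DDIT4, which restrains mTOR, was 26.2-fold above control at 0 hr and then read log2 12.43, 9.93, 6.81 and 6.08, which leaves 1.23% at 4.5 hr. Its slope, -1.48 log2 per hr (SE 0.19, limma adjusted p = 0.000122), was the steepest of all members. CHAC1, which degrades glutathione, was 9.42-fold above control and read 9.84, 7.61, 5.97 and 5.45, with a slope of -0.99 (SE 0.1, adjusted p = 2.98e-05). SESN2, a sestrin that also acts on mTOR, was 12.9-fold above control and read 11.26, 10.31, 7.84 and 7.29. At 4.5 hr DDIT4 and CHAC1 were near control, which read 5.43 and 5.97 at that time.

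DDIT3, the transcription factor CHOP, was 25-fold above control and left late. It read log2 11.96, 11.66, 10.7 and 9.22, so that 14.9% was left at 4.5 hr and its signal was still far above the 6.71 of control. Its fall was -0.61 log2 per hr (SE 0.08, limma adjusted p = 0.000106), and it was the largest of the late losses. CEBPB, a partner of CHOP, named after its values were seen, behaved alike with 12.34, 11.99, 10.98 and 10.14 (21.8% left). The regulatory subunits that undo PERK's mark were lost as well: PPP1R15B, the constitutive one, read 10.15, 8.71, 7.14 and 6.5 (8.01% left), and PPP1R15A (GADD34), the inducible one and also named afterwards, 8.79, 8.31, 7.52 and 7.41. SLC38A2, an amino acid transporter, read 12.46, 11.51, 9.73 and 7.79 (3.93% left). Its 2 other probe sets at log2 7 or more changed by -3.51 and -3.27 at 4.5 hr, against -4.67 for this one.

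Other members of the same list were not lost, and these too were named after their values were seen. ATF4 itself read log2 13.32, 13.29, 13.11 and 13.0, with 79.7% left. ATF3, a stress-induced repressor 8.46-fold above control, was lower at each time. It read 11.11, 11.0, 10.6 and 10.33, with 58.2% left, and its slope did not pass as falling (limma adjusted p = 0.311). In control cells ATF3 read 8.03, 6.31, 4.98 and 5.34. TRIB3, a pseudokinase that holds back ATF4, read 10.97, 11.08, 11.15 and 10.85, and CEBPG, a partner of ATF4, 10.09, 10.25, 10.16 and 10.16. CTH, which makes cysteine, was 4.52-fold above control and read 8.42, 8.25, 8.21 and 8.65. CHAC1 and ATF3 both hold the composite element shown above, and at 4.5 hr 4.76% of the signal of CHAC1 was left and 58.2% of that of ATF3.

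The upstream part of the ER response had a share of losses near that of all members. Of 11 transcription factors and sensors 1 was lost (9.09%, against 7.72% of all members) and 5 were steady (45.5%, against 32.8%). EIF2AK3, which encodes PERK, was 4.31-fold above control at 0 hr and read log2 9.94, 9.29, 8.81 and 8.11 (28.1% left; slope -0.4, SE 0.05). ATF6 read 9.16, 9.01, 9.24 and 9.17, and ERN1, which encodes IRE1, 8.64, 8.63, 8.45 and 8.28. XBP1 read 10.17, 10.17, 9.69 and 9.58, with 66.3% left and no call as falling (limma adjusted p = 0.217).

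The effectors stayed. Of 33 ER chaperones and folding enzymes 20 were steady (60.6%, against 32.8% of all members), 3 fell and 0 rose. The 2 that were lost are 6.06%, near the 7.72% of all members. HSPA5 (BiP), the main ER chaperone, was 3.86-fold above control and read log2 13.9, 13.82, 13.86 and 13.74, with 89.3% left at 4.5 hr (slope -0.03, SE 0.03, limma adjusted p = 0.462). HSP90B1 (GRP94) read 11.49, 11.17, 11.35 and 11.22 and CALR, a lectin chaperone, 11.07, 10.89, 11.44 and 11.0. SDF2L1 read 11.85, 11.88, 11.83 and 11.89, and DNAJC3, a co-chaperone that inhibits PERK, 10.46, 10.61, 10.72 and 10.68; these 5 were named after their values were seen. CRELD2 and HYOU1, named by rule for the smallest changes, read 12.1, 12.06, 11.96 and 12.13, and 10.89, 10.73, 10.66 and 10.87. The 3 that fell were SDF2 (9.31, 8.97, 8.68 and 8.36), TXNDC11, which was just past the limit of a loss (7.64, 7.23, 6.97 and 6.63), and DNAJB9, a co-chaperone that restrains IRE1. DNAJB9 was 8.81-fold above control, read 11.13, 10.33, 9.62 and 8.92 and fell by 0.49 log2 per hr (SE 0.08, adjusted p = 0.000684), with 21.6% left.

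The same held along the secretory route. Of 26 genes of ER-associated degradation 14 were steady (53.8%) and 1 was lost, and of 35 genes of translocation and N-glycosylation 22 were steady (62.9%) and 1 was lost. HERPUD1, which gathers the degradation complex, was 7.84-fold above control and read log2 13.67, 13.43, 13.22 and 13.0, with 62.9% left and a fall of 0.15 per hr (SE 0.03, limma adjusted p = 0.00316). Its other probe set had a change of -2.32 at 4.5 hr, so the share left depends on the probe set. The lost members were RNF139, an ER ubiquitin ligase (10.97, 10.56, 9.75 and 8.61), and ALG2, a mannosyltransferase of the sugar chain that tunicamycin blocks (10.84, 10.24, 9.47 and 9.13). VCP, the ATPase that extracts ER proteins, read 11.12, 11.18, 11.18 and 11.12.

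The list of matrix and adhesion genes, most of which are translated at the ER, had few calls. Over 45 members the median log2 change was -0.22 at 1.5 hr, -0.16 at 3 hr and -0.17 at 4.5 hr, against 0.08 at 4.5 hr in control, 1 was lost (2.22%, against 7.72% of all members) and 4 fell (0 without the array at 0 hr, 2 without that at 4.5 hr) while 0 rose. The hybridization controls, which do not come from the cells, changed by -0.48 to -0.08 at 1.5 hr, a range that holds this median, and their part was not tested. CD59, a complement inhibitor anchored at the cell surface, read 10.87, 9.93, 9.47 and 9.48, from 0.472 times the control level at 0 hr, while control read 11.95, 11.66, 11.75 and 11.67. Its slope was 0.26 lower than in control (limma adjusted p = 0.0174). COL4A1, a basement membrane collagen, read 11.04, 10.44, 10.35 and 10.3, with most of its change in the first interval, and fell by 0.15 log2 per hr (SE 0.04, adjusted p = 0.0167).

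Among the lists, the cytosolic ribosomal proteins had the largest share of steady members. Of 51 cytosolic ribosomal proteins 47 were steady (92.2%), 0 were lost, 0 fell and 2 rose, and RPS27 read log2 14.35, 14.27, 14.35 and 14.35. Of 17 aminoacyl-tRNA synthetases, which charge tRNAs and are known ATF4 targets in part, 12 were steady (70.6%) and 0 were lost, and LARS1 read 10.78, 10.86, 10.82 and 10.81. The composite element TGATGNAA stood in 3 of 14 synthetase promoters (21.4%), those of AARS1, GARS1 and IARS1. These lists keep their place under the other scaling only in relation to the rest, because one scaling sets the ribosomal proteins to 0 by construction.

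**Figure D3:**
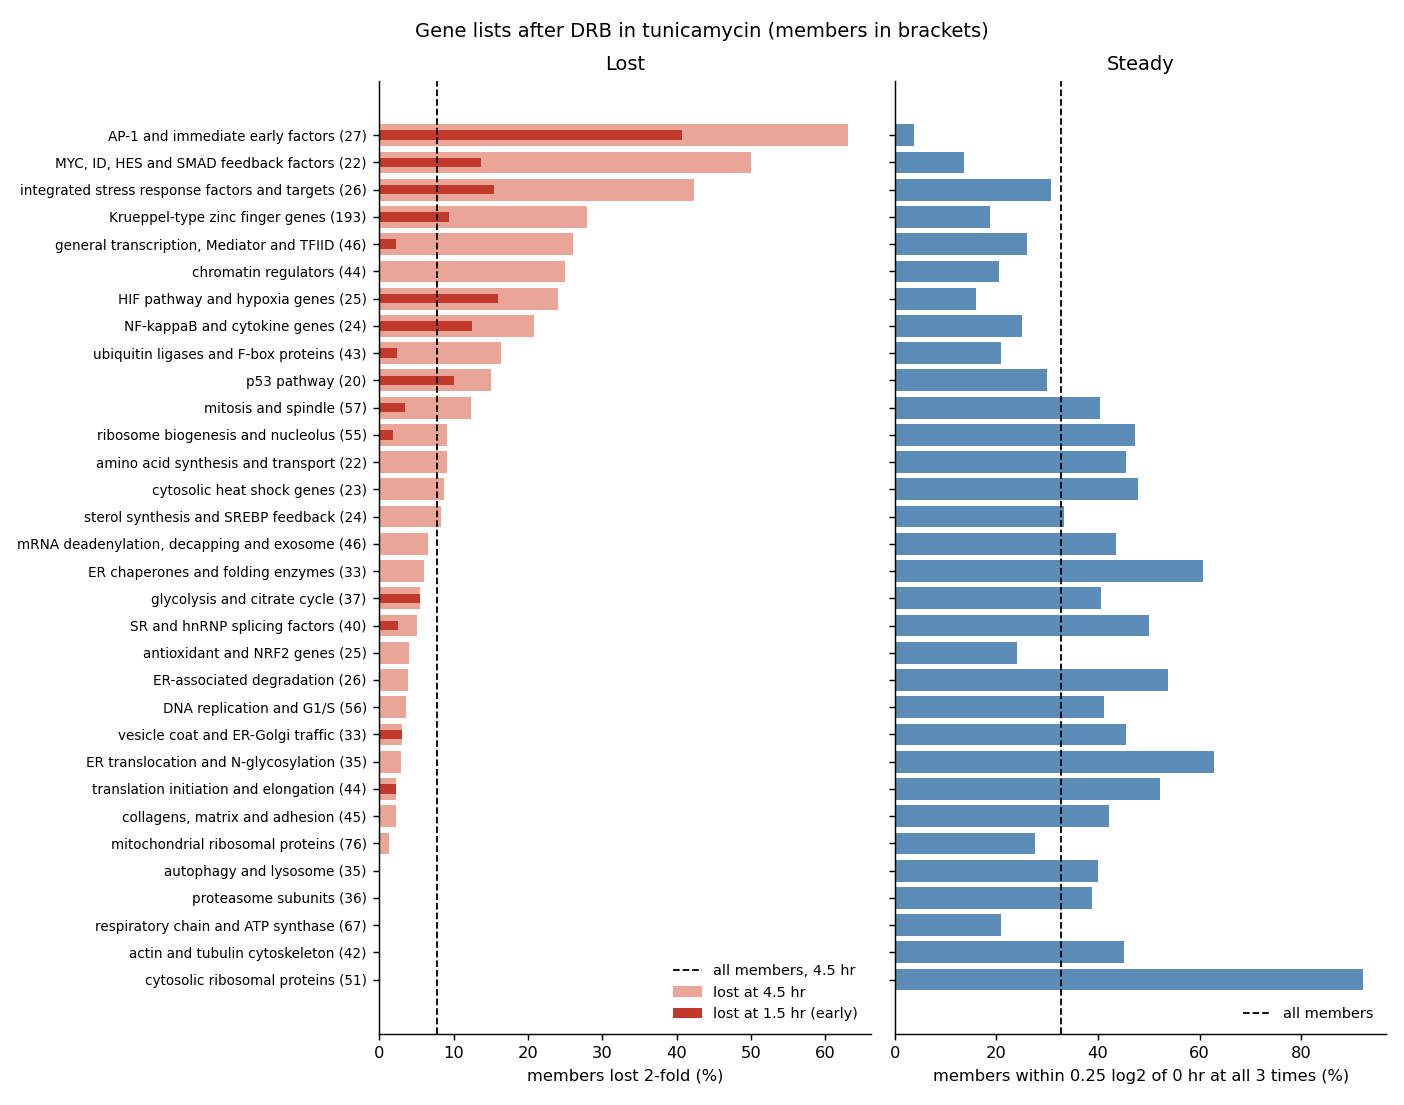
Share of each gene list (rows, with the number of members in brackets) lost 2-fold at 4.5 hr (light bars) and at 1.5 hr (dark bars) on the left, and steady at all 3 times on the right, in percent of its members in tunicamycin. Dashed lines mark all members, 7.72% and 32.8%. The immediate early list leads with 63% lost, and the cytosolic ribosomal proteins have 92.2% steady and none lost.

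Among the late losses were many factors of the transcription and chromatin machinery. Of 46 genes of general transcription, Mediator and TFIID 12 were lost at 4.5 hr (26.1%), 7 of them late and 1 early, and of 44 chromatin regulators 11 were lost (25%), 7 late and 0 early. Among the chromatin regulators 21 fell and 1 rose, and their median log2 change went from -0.16 at 1.5 hr to -0.4 at 3 hr and -0.39 at 4.5 hr. Without the array at 0 hr 9 of the 44 passed as falling.

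GTF2B, the initiation factor TFIIB, read log2 9.97, 9.68, 8.28 and 7.48: 81.8% was left at 1.5 hr and 17.8% at 4.5 hr (slope -0.59, SE 0.07, limma adjusted p = 4.19e-05). TADA1, of the SAGA complex, read 8.48, 8.09, 7.11 and 6.04, TAF5, of TFIID, 8.7, 8.26, 7.42 and 6.41, and MED17, of Mediator's head, 9.51, 8.83, 7.52 and 6.63. Each lost the larger part of its signal after 1.5 hr. KDM5B, a histone H3 lysine demethylase, read 7.63, 7.51, 6.31 and 5.64 and ARID5B 9.32, 8.47, 6.35 and 5.59. CREBBP and CHD4, a histone acetyltransferase and a remodelling ATPase, were steady, with 10.49, 10.41, 10.32 and 10.51, and 12.12, 12.11, 12.13 and 12.09.

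Genes whose symbol starts with ZNF make up the list called Krueppel-type zinc finger genes, and the type of finger was not checked. They were lost in early and late portions. Of 193 members 18 were early, 14 late and 54 lost at 4.5 hr (28%), 82 fell and 7 rose, and 36 were steady. Without the array at 0 hr 25 fell and 0 rose. ZNF222 read log2 8.09, 6.03, 4.89 and 4.77, ZNF217 8.79, 7.76, 5.96 and 5.52 and ZNF281 9.86, 8.56, 7.31 and 6.9. ZNF532 read 9.27, 9.5, 9.22 and 9.27. The list's median change at 4.5 hr was -0.39 in tunicamycin and -0.87 in control, where 89 of the 193 were lost. For 32 members the slope was higher than in control (6 without the tunicamycin array at 0 hr, 8 without that at 4.5 hr) and for 3 it was lower.

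SNAI2 (Slug), a repressor of epithelial genes, read log2 8.33, 8.11, 6.52 and 5.65 in tunicamycin and 7.88, 5.13, 3.95 and 4.46 in control: 85.7% was left at 1.5 hr in tunicamycin, where control had already reached the range of the bacterial probe sets. Its slope of -0.64 (SE 0.16, limma adjusted p = 0.013) lost its call without the array at 0 hr (adjusted p = 0.122) or at 4.5 hr (adjusted p = 0.157). Of 43 ubiquitin ligase genes 7 were lost (16.3%), 5 of them late. SIAH1, a late gene, read 10.08, 9.81, 8.74 and 7.95. KLHL9 read 9.7, 9.04, 7.88 and 6.75 and, at -0.661 by 1.5 hr, was neither early nor late. FBXO5, which restrains the anaphase-promoting complex, was early (10.34, 8.96, 6.97 and 6.57). INSIG1, which holds back sterol synthesis and is known to be short-lived as a protein, read 7.1, 6.61, 5.09 and 4.85.

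Of 55 genes of ribosome biogenesis 26 were steady (47.3%), 11 fell and 3 rose (5.45%). The 5 that were lost are 9.09%, near the 7.72% of all members. MPHOSPH10, of the small-subunit processome, read log2 10.24, 9.85, 8.47 and 7.57, IMP3 9.6, 9.33, 8.06 and 7.61, and UTP3 10.66, 10.44, 9.51 and 8.92, while NPM1, an abundant nucleolar chaperone, read 13.95, 13.94, 13.98 and 13.93. In the mitosis list 19 of 57 fell and 1 rose (1.75%), 7 were lost (12.3%) and 23 were steady (40.4%). Over all members 15.9% fell, 12.5% rose, 7.72% were lost and 32.8% were steady. Leaving out the array at 0 hr, 6 of the biogenesis and 6 of the mitosis genes fell, and leaving out that at 4.5 hr, 5 and 11. CDC25A, which opens entry into the cycle, read 9.22, 8.67, 7.9 and 7.35 and ASPM, a spindle pole protein, 9.8, 9.35, 8.57 and 8.16, whereas CDC20 read 12.41, 12.46, 12.37 and 12.41.

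Lists of RNA decay and splicing genes had shares lost on both sides of that of all members (7.72%). Of 46 genes of deadenylation, decapping and the exosome 3 were lost (6.52%), 20 were steady, 7 fell, against 15.9% of all members, and 4 rose. PUM2, which recruits deadenylases, read log2 10.64, 10.43, 9.73 and 9.3. Of 13 factors of nonsense-mediated decay and the exon junction 2 were lost, SMG8 (9.26, 7.93, 5.79 and 5.56) and PNRC2 (11.02, 10.3, 8.92 and 8.49). Of 40 SR and hnRNP splicing factors 20 were steady and 2 lost. HNRNPA1 read 13.32, 11.42, 10.48 and 9.64, and its other probe sets at log2 7 or more changed by -4.67 to -4.13 at 4.5 hr. Of 14 kinases of the CLK, DYRK and SRPK families, which phosphorylate splicing factors among others, 5 were lost (35.7%), 6 fell (2 without the array at 0 hr, 4 without that at 4.5 hr) and 3 were steady. CLK1 read 8.09, 6.99, 5.69 and 5.02, CLK4 7.82, 6.12, 5.8 and 5.68 and DYRK2 7.54, 7.22, 6.16 and 5.47.

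Of 37 genes of glycolysis and the citrate cycle 2 were lost (5.41%, near the 7.72% of all members), 1 fell and 7 rose (18.9%). Both losses were early: SLC2A3, a glucose transporter, read log2 9.75, 8.35, 8.12 and 7.99, and PFKFB4, a regulator of glycolysis, 7.8, 6.47, 6.87 and 6.5. The 2 other probe sets of SLC2A3 at log2 7 or more were not lost. They changed by -0.33 and -0.8 at 1.5 hr and by -0.58 and -0.95 at 4.5 hr. LDHA, lactate dehydrogenase, read 13.55, 13.59, 13.6 and 13.54. Of 42 actin and tubulin genes 0 were lost, 1 fell and 7 rose (16.7%), and of 35 autophagy and lysosome genes 0 were lost, 1 fell and 2 rose (5.71%). Over all members 15.9% fell and 12.5% rose. In the glycolysis, actin and autophagy lists 0 members rose without the array at 0 hr. With the arrays centred on ribosomal protein genes 1, 2 and 0 rose. Of 56 genes of DNA replication and entry into S phase 2 were lost, E2F3 (9.18, 8.74, 7.67 and 7.45) and E2F2 (9.68, 9.31, 8.89 and 8.57), which drive that entry, whereas MCM6, a subunit of the replicative helicase, read 11.7, 11.8, 11.73 and 11.71. VEGFA, an angiogenic growth factor on the hypoxia list, was 2.13-fold above control at 0 hr and read 10.7, 10.02, 9.41 and 9.0, with 30.8% left. Its 2 other probe sets at log2 7 or more changed by only -0.36 and -0.87 at 4.5 hr.

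Transcripts of respiration, mitochondrial translation and the proteasome gained relative to the typical transcript. Of 67 genes of the respiratory chain and ATP synthase 27 rose (40.3%, against 12.5% of all members) and 1 fell, with a median log2 change of 0.33 at 4.5 hr and 0 lost. Of 76 mitochondrial ribosomal proteins 27 rose (35.5%) and 2 fell, and of 36 proteasome subunits 9 rose (25%) and 0 fell. These calls depend on the scaling and on the end arrays. With ribosomal protein genes as the reference 15, 15 and 2 rose, without the array at 0 hr 0, 1 and 0, and without the array at 4.5 hr 2, 4 and 2. The respiratory list had a like median in control, 0.3.

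NDUFS7, a subunit of respiratory complex I, read log2 9.22, 9.67, 9.67 and 9.91 and rose by 0.14 per hr (SE 0.03, limma adjusted p = 0.00266). MRPL52 read 9.84, 10.32, 10.44 and 10.68. PSMD4, a ubiquitin receptor of the proteasome, started at 11.78 and changed by 0.33, 0.22 and 0.59. MRPL44 was the 1 mitochondrial ribosomal gene lost, with 8.87, 8.61, 7.43 and 6.66. The largest gain of all members was that of RPPH1, the RNA of RNase P, which is made by RNA polymerase III and not by the polymerase that DRB blocks. It read 7.1, 8.17, 9.14 and 9.44 and reached 506% of its start (slope 0.53, SE 0.05, limma adjusted p = 2.25e-05), and control read 7.19, 7.85, 8.88 and 9.04. RNA45SN5, the ribosomal RNA precursor made by RNA polymerase I and the other member of that list, read 7.93, 7.11, 7.23 and 7.33 and did not pass (slope -0.11, adjusted p = 0.413). H1-2, a linker histone gene, read 9.49, 9.76, 10.46 and 10.91 and TPMT 7.38, 8.51, 8.96 and 8.91.

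Fewer genes were lost in tunicamycin than in control, a count with no test. Over the 8625 genes at log2 7 or more at 0 hr in both, 246 were lost in control at 1.5 hr (2.85%) and 161 in tunicamycin, and 1034 in control at 4.5 hr (12%) and 648 in tunicamycin. The lists overlapped: at 4.5 hr 531 genes were lost in both, 81.9% of those lost in tunicamycin and 51.4% of those lost in control. In the fit with time as a factor 635 members (7.18%) had a higher slope in tunicamycin and 56 (0.633%) a lower one, by limma with adjusted p under 0.05. These counts move with the end arrays. The higher slopes numbered 121 when the tunicamycin array at 0 hr was dropped, 162 for that at 4.5 hr, and 137 and 342 for the same times in control. The lower slopes numbered 9, 57, 16 and 17 in the same order.

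ORC5, a subunit of the origin recognition complex, kept its level in tunicamycin (log2 10.17, 10.31, 10.2 and 10.35) and went down in control (9.82, 9.05, 7.86 and 7.34), a slope difference of 0.6 log2 per hr (SE 0.06, limma adjusted p = 0.000358). BRIX1, which acts in the making of the large ribosomal subunit, read 8.92, 9.09, 8.67 and 8.41 against 9.12, 8.03, 6.34 and 5.91. XBP1 read 8.78, 7.43, 5.36 and 4.91 in control, against the values above in tunicamycin, a difference of 0.76 (SE 0.11, adjusted p = 0.00189). XBP1 is the transcript that IRE1 splices, and its call was lost with the median of its probe sets (0.35, adjusted p = 0.0531), without the tunicamycin array at 0 hr (0.74, adjusted p = 0.0576) or without the control array at 0 hr (0.64, adjusted p = 0.068). TIFA, an adaptor of NF-kappaB signalling, read 10.21, 10.25, 9.95 and 9.62 against 9.58, 8.77, 5.9 and 5.4 (0.89, SE 0.11, adjusted p = 0.00102) and, taking the median over its probe sets, a difference of 0.09 (adjusted p = 0.757). RND3 read 11.62, 11.11, 10.16 and 9.36 against 10.89, 7.75, 5.65 and 5.33, and its difference of 0.74 had an adjusted p of 0.0372 that rose to 0.575 when the array at 0 hr was dropped in control and to 0.479 when it was dropped in tunicamycin.

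Of the 55 ribosome biogenesis genes 17 had a higher slope in tunicamycin and 0 a lower one, and 16 were lost in control against 5 in tunicamycin. Without the tunicamycin array at 0 hr 6 of the 55 passed as higher, and without that at 4.5 hr 9. Of 76 mitochondrial ribosomal proteins 14 had a higher slope and 0 a lower one, with 2 and 3 higher under the same alternatives. In the integrated stress response list the slope was lower for 5 of 26 and higher for 2, TRIB3 (0.33, SE 0.04, limma adjusted p = 0.00102) and CEBPG (0.26, adjusted p = 0.00281).

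The lower slopes were led by transcripts that start high in tunicamycin. DDIT4 read log2 7.72, 6.06, 4.82 and 5.43 in control and had a slope difference of -0.94 (SE 0.16, limma adjusted p = 0.00533), CHAC1 read 6.6, 5.81, 5.74 and 5.97 (-0.86, SE 0.1, adjusted p = 0.000616), and SESN2 7.57, 6.72, 6.25 and 6.08 (-0.63, SE 0.09, adjusted p = 0.00139). In control DDIT4 at 3 hr was below the highest bacterial control (5.26), while CHAC1 and SESN2 stayed above it. CHAC1 started in control at 6.6, under the limit of log2 7 used for losses, so it had little room to fall there. The part of this in its slope difference was not tested. CHAC1 and SESN2 kept their calls under each alternative run. DDIT4 lost its call without either end array of tunicamycin or control (adjusted p = 0.0502 to 0.0963) and DDIT3 (-0.49, adjusted p = 0.0273) without the tunicamycin array at 4.5 hr (-0.23, adjusted p = 0.415) or an end array of control (adjusted p = 0.158 and 0.197). FJX1, a secreted signalling protein, starts lower than in control and had 9.61, 8.54, 6.99 and 6.13 against 10.02, 9.39, 8.92 and 8.27 (-0.42, SE 0.06, adjusted p = 0.00173; 0.0699 without the tunicamycin array at 0 hr).

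Over all members, 89 were 2-fold or more above control at 0 hr (1.01%), and 41 of these were lost at 4.5 hr (46.1%), against 683 of 8852. Of the 89, 14 were early, 11 late and 10 steady, 11 had a lower slope than in control and 12 a higher one, and 57 were still 2-fold above control at 4.5 hr. Both the excess at 0 hr and the change use the same 0 hr arrays.

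**Figure D4:**
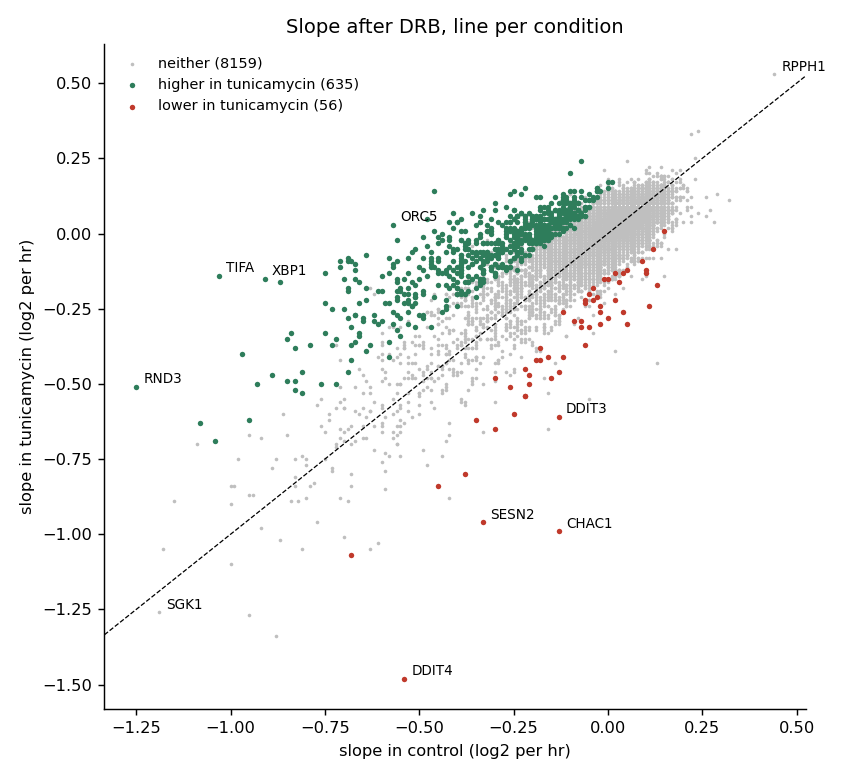
Slope after DRB in tunicamycin (vertical axis) against that in control (horizontal axis), both in log2 per hr from a line per condition, 1 point per member tested, with the dashed line at equal slopes. The 635 members with a higher slope in tunicamycin lie above the line, XBP1 and TIFA among them, and the 56 with a lower one below it, with DDIT4 lowest at -1.48.

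The losses in tunicamycin were shared with hypoxia and UPF1 depletion and largely absent with emetine, which freezes ribosomes on the messenger. Among genes at log2 7 or more at 0 hr in both conditions, hypoxia lost 133 of 8554 at 1.5 hr (1.55%) and 758 at 4.5 hr (8.86%), shRent1 lost 134 of 8605 (1.56%) and 991 (11.5%), and emetine lost 19 of 8509 (0.223%) and 84 (0.987%). Of the genes lost in tunicamycin at 4.5 hr, 64.5% were lost in hypoxia, 79.2% in shRent1 and 10.9% in emetine. In turn 54.5%, 52.3% and 84.5% of the genes lost in these conditions were lost in tunicamycin.

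In emetine the late genes stayed and part of the early ones was lost. Of 291 late genes at log2 7 or more there, 1 was lost by 4.5 hr (0.344%), with a median log2 change of -0.06, whereas the same genes had -1.31 in tunicamycin. Of 160 early genes 60 were lost by 4.5 hr in emetine (37.5%). Among the early genes 43 of 137 that code for protein were lost (31.4%, median -0.47), and 17 of 23 others (73.9%, median -1.81). HYMAI changed by -4.08 in emetine, LOC114224 by -3.45 and ASAP1-IT1 by -2.98, nearly as in tunicamycin. EGR1 and JUN belong to the immediate early list, of which 0 of 27 members were lost in emetine and whose median there was -0.22.

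**Figure D5:**
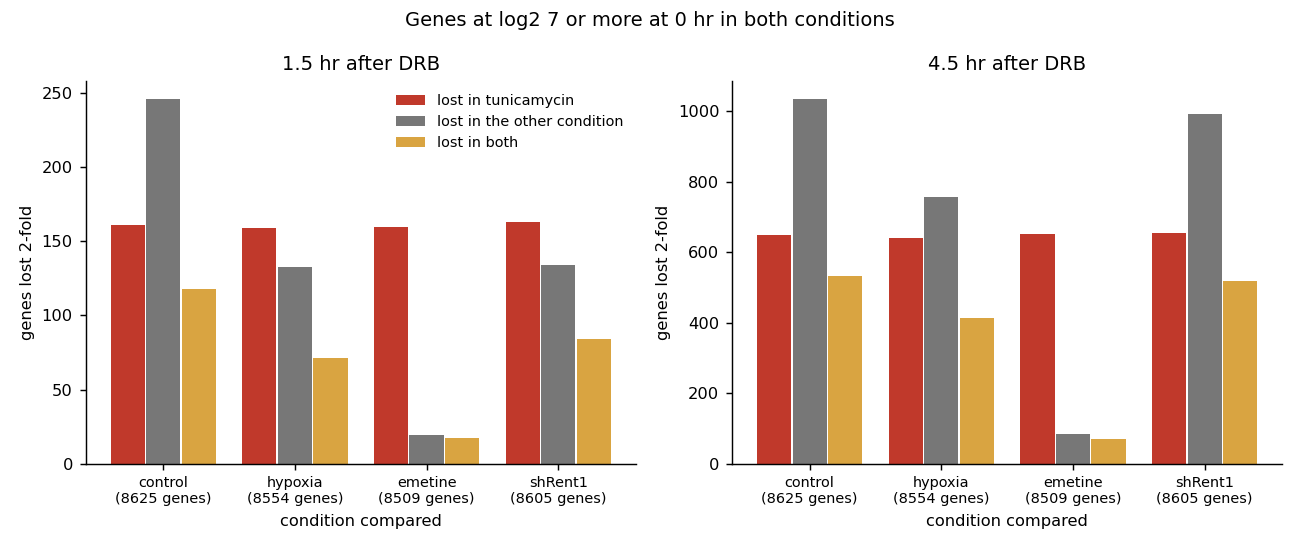
Number of genes lost 2-fold (vertical axis, from 0) at 1.5 hr (left) and 4.5 hr (right) in tunicamycin, in the condition named under each group of bars, and in both, over the genes at log2 7 or more at 0 hr in both. At 4.5 hr 531 genes are shared with control, 413 with hypoxia, 518 with shRent1 and 71 with emetine.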

How the data were processed

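Total RNA of U2OS cells was labelled with biotin after reverse transcription from the 3' end and hybridized to Affymetrix arrays, as the labels' protocols say. Values are deposited as 1 linear intensity for each of 54675 probe sets on each of 20 arrays, which the authors made with RMA, per the submitters' processing notes. The version of RMA is not given in the sources used here. RMA sets the arrays to a common scale, so a loss shared by most transcripts is removed, and detection calls were not used here. The number of arrays limits the precision.

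The deposited intensities were taken to log2. Of the probe sets, 41091 had 1 symbol in the platform annotation, 1801 had several and 11777 none, and the brightest probe set over all arrays stood for each gene. Genes above the 40th percentile of mean signal (log2 4.7) were tested. limma 3.58.1 in R 4.3.3 fitted a line per condition to all 20 arrays (10 coefficients, 10 residual degrees of freedom, median residual SD 0.132 log2), and, for slope differences, the times as levels of a factor plus a level and a linear trend for each condition (12 coefficients, 8 residual degrees of freedom). Benjamini-Hochberg adjustment ran over 14478 genes, with a threshold of 0.05. Counts and figures used Python 3.11.15. On simulated data the line fit recovered 95 of 100 slopes of -0.4 log2 per hr and 70 of 100 slopes of -0.2. It called 8 of 14278 unchanged genes as falling. How often calls are wrong on the arrays themselves was not tested.

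The members and the 42 gene lists (1936 entries on the array) were chosen with earlier results of these data known, so the lists are described by counts and medians with no set test. The genes named are the largest losses at 1.5 hr (15), late losses (15) and gains (12), the 10 lowest and 10 highest slopes, the 8 highest and 8 lowest slope differences, per list the 4 largest and 2 smallest changes at 4.5 hr, lists of up to 12 members, and the 3 genes on each side of a threshold. CANX, PDIA6, FOSL1, AARS1, GARS1, IARS1, JDP2 and others said to be so were named after their values were seen. Alternatives were other scalings, probe set rules, filters, member limits and models, and leaving out each tunicamycin array. Leaving out each control array was chosen after seeing the data.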

Additional observations from a re-analysis of the deposited data

Results flagged for a closer look

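Slopes after DRB that differed between tunicamycin and control by limma's test of the difference were set apart here. The difference, tunicamycin minus control in log2 per hr, was positive for 635 members and negative for 56. The 8 highest were those of TIFA (0.89), XBP1 (0.76), RND3 (0.74), MTFR2 (0.71), BRIX1 (0.62), CMTR2 (0.62), ING2 (0.61) and ORC5 (0.6). The 8 lowest were those of DDIT4 (-0.94), CHAC1 (-0.86), SESN2 (-0.63), DDIT3 (-0.49), FJX1 (-0.42), BCL6 (-0.4), LOC100190986 (-0.39) and DUSP10 (-0.35). MTFR2, BRIX1, CMTR2, ING2, ORC5, CHAC1 and SESN2 kept their calls under each alternative run. BCL6 and DUSP10 lost theirs with the median of their probe sets (-0.1, limma adjusted p = 0.78, and -0.16, adjusted p = 0.123), as did LOC100190986 (-0.19, adjusted p = 0.295).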

How the results depend on the processing

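No called slope or slope difference changed sign under an alternative run. Without the tunicamycin array at 0 hr 5 slopes that had not been called changed sign, to values near 0. They were those of EIF3C (-0.81 to 0.1), HYMAI (-0.79 to 0.04), TAF1D (-0.87 to 0.02), SNORA21 (-0.59 to 0.03) and MIR181A2HG (-0.53 to 0.02). The number of rising members came to 498 after centring on ribosomal protein genes, 620 without probe sets ending in _s_at or _x_at and 106 with the tunicamycin arrays alone. Leaving out 1 tunicamycin array gave 13 to 1251 rising and 476 to 1372 falling members. Slopes higher than in control numbered 397 with the median of probe sets, 389 without _s_at and _x_at probe sets, 410 with a line per condition and 121 to 591 without 1 tunicamycin or control array. Lower slopes numbered 28, 36 and 29 under the same 3 alternatives, 103 with eBayes with trend and robust, and 9 to 63 without 1 array. Members up 2-fold numbered 5 with ribosomal protein centring and 2 with a limit of log2 8 at 0 hr. The cause was not tested. Of 814 named slopes and slope differences over the settings, 734 kept their side of the threshold, 76 lost it and 4 gained it, 26 of the 76 without the tunicamycin array at 0 hr. No paired analysis was possible because each condition and time has 1 array. Losses that end under log2 5.26 are limited by the arrays' floor.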

Other observations

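The probe set for Alu repeats, which stand in many introns and untranslated ends, read log2 14.97, 14.59, 14.66 and 14.44 in tunicamycin, a change of -0.54 at 4.5 hr. It changed by -0.44 in control, -0.29 in hypoxia, -0.32 in emetine and -0.3 in shRent1. The hybridization control probe sets, which do not depend on the cells, changed by -0.48 to -0.08 at 1.5 hr and by -0.41 to 0.12 at 4.5 hr in tunicamycin. The difference between 3' and 5' probe sets of ACTB lay between 0.38 and 0.65 log2 over the tunicamycin arrays and that of GAPDH between -0.04 and 0.05.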
